A study of Mus musculus with 17 samples.

Results

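Ribosome biogenesis factors are the proteins that transcribe, modify, cut and fold ribosomal RNA and assemble it with ribosomal proteins. The set described here holds 49 genes of the 25899 gene symbols in the deposited table, named one by one and chosen by function, not by a measured value. They were counted in 17 libraries of new RNA from mouse embryonic stem cells, and 47 of the 49 passed the filter on low counts. The other two, Pno1 and Wdr74, had 0 counts in all 17 libraries, where a count of 0 allows up to 3 counts, and were not tested. Whether the authors' annotation counted reads for both genes is not given in the sources used here, so their 0 may not be a measured level.

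The cells were of the E14tg2a line on a 129SV background. Every group shared the same genotype, in which both Erk genes were knocked out and replaced by a FLAG-ERK2 Q103A cDNA, a kinase altered so that PP1 can block it, together with a cRAF-ErT2 cassette, a RAF kinase switched on by 4-hydroxytamoxifen (4OHT). Every group was also grown in serum with LIF, with 2 µM Chir99021 up to the change of medium, and then spent 24 h in 250 nM PD173074, an inhibitor of FGF receptors. The 6 groups were DMSO (n = 2, clones b and c), 4OHT at 250 nM for 2 h, a MEK inhibitor (MEKi) at 1 µM, MEKi with 4OHT, PP1 at 2 µM, and PP1 with 4OHT, with n = 3 (clones a, b and c) in each group other than DMSO. Ethynyl uridine at 5 mM was given for the last 15 minutes, and the RNA that took it up was captured and sequenced, so the counts follow recent synthesis rather than the stored pool. The replicates are 3 clones of 1 line, and a p-value here measures only the spread between these clones. How long the inhibitors were given without 4OHT is not clear from the labels.

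Ribosomes are made in the nucleolus, where RNA polymerase I copies the ribosomal DNA into a long precursor. Small nucleolar ribonucleoproteins (snoRNPs) modify that precursor: box C/D particles add methyl groups and box H/ACA particles turn uridine into pseudouridine. A large assembly, the small subunit processome, folds and cuts the part that becomes the small subunit, while a separate series of factors builds the large subunit, and late factors finish both on the way to the cytoplasm. Growth signals that act through RAS, RAF and ERK, and the transcription factor MYC, are known to raise ribosome production in many cell types, and pluripotent cells have large, active nucleoli. The members were ordered by these roles: 4 genes of RNA polymerase I transcription, 4 of box C/D snoRNPs, 4 of box H/ACA snoRNPs, 5 nucleolar scaffold proteins and chaperones, 12 of the early small subunit processome, 6 of late small subunit maturation and 14 of large subunit assembly.

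Promoter sequences are given first, because genes whose new RNA moves together can be compared by the letters next to their start sites. The RefSeq table (GRCm38.p6, the same coordinates as mm10) held 43 of the 49 members; Bop1, Fbl, Npm1, Rrp12, Rrs1 and Tbl3 had no entry in it. Each entry was searched on both strands over the 250 bases before the start site for 4 motifs: the E-box CACGTG, its variant CACGCG, the ETS motif CCGGAAGT and the TATA box TATAAA. None of these motifs contains another, though partial overlaps are possible. They were chosen with the data at hand, and no test was made on them.

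The ETS motif, recognised by ETS family factors, was found in 8 of 43 member promoters (18.6%), beside 627 of 11322 promoters of all tested genes with an entry (5.5%). Within 100 bases of the start site the shares were 16.3% and 4.2%. The matches are shown because this was the motif whose share stood farthest from that of all tested genes. Each line gives at most 30 bases on the gene's strand, 5′ to 3′, with the match in capitals; where the capitals read ACTTCCGG the motif lies on the opposite strand.
Nhp2 (chr11:51619739-51619768, plus strand): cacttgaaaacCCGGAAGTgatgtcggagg
Gar1 (chr3:129831422-129831451, minus strand): cgcgccgccacACTTCCGGaaacgtcgcgt
Heatr1 (chr13:12395348-12395374, plus strand): gtagtgagaagCCGGAAGTtcctatga
Pwp2 (chr10:78185152-78185181, minus strand): gcggctccgccCCGGAAGTgcgcgttttaa
Ltv1, distal match (chr10:13193217-13193246, minus strand): agccccacctcCCGGAAGTccccgggaagg
Ltv1, proximal match (chr10:13193175-13193204, minus strand): gggctcacgcaACTTCCGGctacagcctag
Nip7 (chr8:107056763-107056792, plus strand): gctttcggtccCCGGAAGTccgccacggta
Wdr74 (chr19:8735801-8735830, plus strand): gtagtggcgcgCCGGAAGTgcaagccacgg
Grwd1 (chr7:45830810-45830839, minus strand): ggaggtgaaacCCGGAAGTgacgctctcac
In 7 of these genes, those that could be tested, new RNA was higher after 4OHT, as it was in 27 of the 34 tested members whose promoters lacked the motif. The median log2 fold change was 0.57 in the 7 and 0.48 in the 34. Across all tested genes these medians were 0.17 with the motif and -0.03 without it. The matches of Nhp2, Heatr1 and Grwd1 lay inside the annotated span of the gene itself. Their start sites were 38, 348 and 155 bases from the gene's annotated 5′ end, so these matches may not lie in a promoter. A match describes letters in a window and does not show a bound factor.

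The E-box CACGTG, the element that MYC with its partner MAX binds, was found in 3 of 43 member promoters (7.0%), beside 8.3% of the promoters of all tested genes. CACGCG was found in 6 (14.0%, beside 14.0%) and TATAAA in 3 (7.0%, beside 6.5%). The median GC content of the window was 57.2% in the members and 59.6% in the tested genes. The 4 matches of CACGTG, in Rrn3, Imp4 and Nop2, are given in the same form.
Rrn3, distal match (chr16:13780472-13780501, plus strand): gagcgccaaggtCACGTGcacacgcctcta
Rrn3, proximal match (chr16:13780639-13780668, plus strand): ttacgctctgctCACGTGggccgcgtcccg
Imp4 (chr1:34439696-34439725, plus strand): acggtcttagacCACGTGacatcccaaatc
Nop2 (chr6:125131811-125131840, plus strand): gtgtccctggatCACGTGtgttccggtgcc
All 3 genes rose after 4OHT without inhibitor and with PP1, and the 38 tested members without the E-box held 31 and 24 genes that rose in these comparisons.

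**Figure D1:**
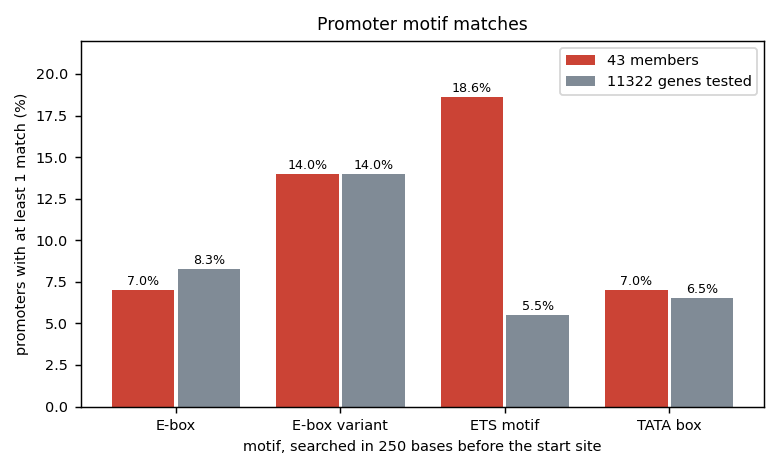
Share of promoters with at least 1 match in the 250 bases before the start site, for 43 members with an entry (red) and 11322 tested genes with an entry (grey). The ETS motif is found in 18.6% against 5.5%, the E-box in 7.0% against 8.3%, its variant in 14.0% of both, and the TATA box in 7.0% against 6.5%.

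The promoters of the members with an entry that had the largest and the smallest fold changes after 4OHT were also read. These were Ddx21, Ubtf and Heatr1 at the high end, and Rrp1b, Ppan and Utp14a at the low end. From the 250 bases before each start site the longest stretch outside any annotated exon is printed, on the gene's strand, with a match of any of the 4 motifs in capitals.
Ddx21 (chr10:62602299-62602349, minus strand): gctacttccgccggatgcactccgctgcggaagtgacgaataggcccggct
Ubtf (chr11:102319743-102319842, minus strand): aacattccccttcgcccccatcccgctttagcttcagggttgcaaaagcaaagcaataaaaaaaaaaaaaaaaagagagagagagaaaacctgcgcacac
Heatr1 (chr13:12395125-12395351, plus strand): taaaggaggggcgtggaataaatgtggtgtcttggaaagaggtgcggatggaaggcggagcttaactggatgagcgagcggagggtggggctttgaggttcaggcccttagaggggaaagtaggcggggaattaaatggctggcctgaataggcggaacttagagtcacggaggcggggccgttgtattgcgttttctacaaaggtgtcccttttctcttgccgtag
Rrp1b (chr17:32035912-32036099, plus strand): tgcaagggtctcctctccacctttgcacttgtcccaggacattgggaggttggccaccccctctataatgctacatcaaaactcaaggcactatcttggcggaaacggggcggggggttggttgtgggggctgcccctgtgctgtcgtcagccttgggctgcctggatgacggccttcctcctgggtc
Ppan (chr9:20887925-20888174, plus strand): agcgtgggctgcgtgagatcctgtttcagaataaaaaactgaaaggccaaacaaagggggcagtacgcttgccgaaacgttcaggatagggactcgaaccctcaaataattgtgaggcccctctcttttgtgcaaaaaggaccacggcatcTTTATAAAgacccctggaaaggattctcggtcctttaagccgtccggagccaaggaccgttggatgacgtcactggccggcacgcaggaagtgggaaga
Utp14a (chrX:48256684-48256861, plus strand): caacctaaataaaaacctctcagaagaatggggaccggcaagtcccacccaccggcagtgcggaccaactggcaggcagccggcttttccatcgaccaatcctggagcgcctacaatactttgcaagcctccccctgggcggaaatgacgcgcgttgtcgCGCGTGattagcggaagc
Matches in these stretches were found in Utp14a, with the E-box variant on the opposite strand, and in Ppan, with TATAAA on both strands as 2 overlapping matches. The ETS match of Heatr1 shown above lies nearer to the start site than its stretch. The start site of the Heatr1 entry lay 348 bases inside the annotated gene, counted from the gene's 5′ end. The stretch printed for Heatr1 is therefore within the annotated gene, between exons, and may not be promoter sequence.

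Library totals ran from 5239690 to 11093390 counts. Levels are given as CPM (a count scaled to the size of its library, with TMM factors), which sets libraries side by side by assuming that most genes do not shift together, and every change below is relative to that scaling. Libraries of a group correlated with r from 0.976 to 0.991 across genes. A set of 14 loci with very high counts took from 9.38% (4OHT, clone a) to 42.0% (PP1, clone a) of a library, and background in long genes was highest in MEKi clone a (13.1 CPM per Mb) and MEKi with 4OHT clone b (9.36), against 2.45 to 7.46 in the other 15. All 8 embryonic stem cell markers had counts in every library, with a summed level of 2610 to 3555 CPM. In 4OHT against DMSO 1 of these 8 was called higher and 3 lower, beside 25.7% and 26.3% of all genes. The fibroblast markers summed to 0.927 to 3.79 CPM and the primitive endoderm markers to 5.64 to 16.8 CPM. The trophoblast markers summed to 15.1 to 23.5 CPM after 4OHT, above the 8.31 to 9.35 CPM of DMSO, and their part in the results was not tested. Spry4, a feedback inhibitor whose transcription follows ERK activity, checked the treatment. It rose by 4.35 ± 0.11 on the log2 scale after 4OHT and by 4.07 ± 0.10 after 4OHT with PP1. It fell by 3.44 ± 0.17 after 4OHT with MEKi. Its mean went from 114 to 2320 CPM without inhibitor, from 46.5 to 775 CPM with PP1 and from 17.6 to 1.60 CPM with MEKi. Its levels with PP1 were thus below those without inhibitor, both before and after 4OHT, which the fold changes alone do not show.

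In the DMSO group, which like all groups had PD173074, levels per kilobase of exon spread widely over the members. Npm1, the abundant nucleolar chaperone nucleophosmin, stood first with a mean of 305 CPM per kb. Ncl, the nucleolar RNA-binding protein nucleolin, followed with 78.1, then Wdr43 with 70.4, Rrn3 with 63.6 and Nop58 with 58.5 CPM per kb. The lowest were Imp4 (6.17), Pes1 (5.60) and Tbl3 (3.73). New RNA includes introns, and the length used is that of exons, so this order holds only on that scale.

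New RNA of most members was higher after 2 h of 4OHT, the agent that switches on cRAF-ErT2. Every group carried this cassette, so effects of 4OHT through RAF and outside it cannot be told apart by this comparison. Of the 47 tested, 37 were higher in 4OHT than in DMSO and 0 were lower, by edgeR's quasi-likelihood test at a Benjamini-Hochberg adjusted p under 0.05 over 14907 genes. Over all genes tested, 25.7% were called higher and 26.3% lower (52% in either direction). At an unadjusted p under 0.05, 39 members were higher and 0 lower. The share of all genes at this unadjusted threshold was not counted, here or in the comparisons below. The members' median log2 fold change was 0.51, with a range from -0.00 to 0.98, beside -0.02 for all genes. In 41 members all 4OHT libraries lay above both DMSO libraries, which held for 32.3% of all genes. In these bulk libraries, more cells making an RNA and more RNA made per cell cannot be told apart.

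**Figure D2:**
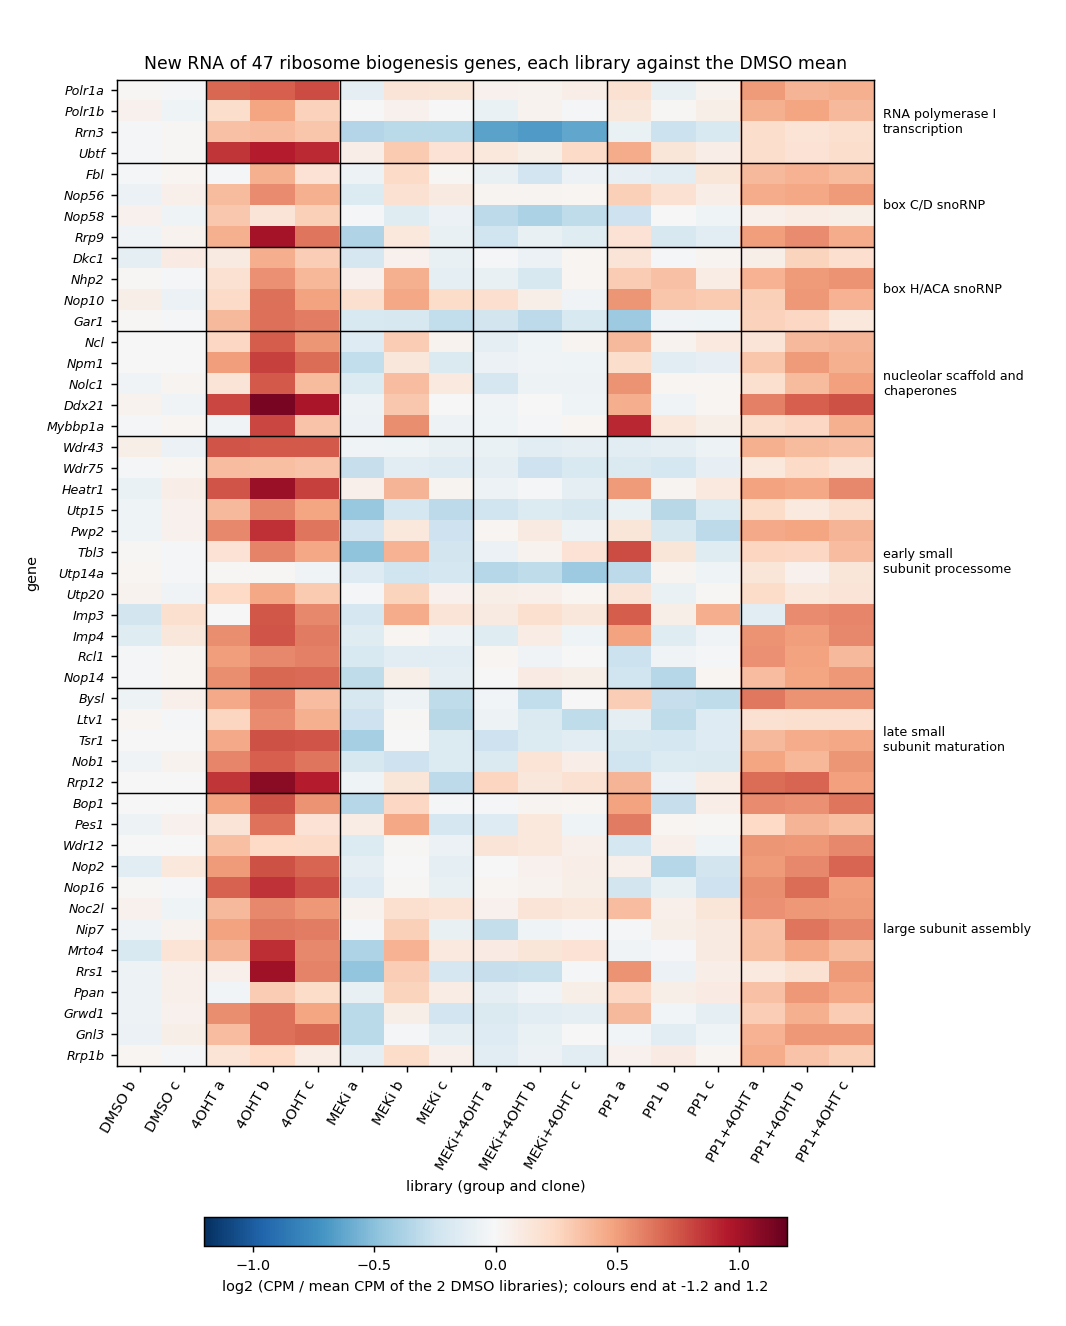
Colour map of 47 tested members (rows, grouped by role) in 17 libraries (columns, by group and clone), as log2 of CPM over the mean of the 2 DMSO libraries. The 3 columns of 4OHT and the 3 of PP1 with 4OHT are mostly red, with library medians from 0.39 to 0.66 and from 0.37 to 0.46, while the medians of the MEKi with 4OHT columns lie from -0.07 to -0.02.

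All 4 genes of RNA polymerase I transcription rose. Ubtf, which binds and opens the ribosomal DNA, had 139 and 142 CPM in DMSO and 255, 271 and 263 CPM after 4OHT in clones a, b and c. The groups did not overlap, with a log2 fold change of 0.90 ± 0.09 (standard error, adjusted p = 1.9e-08). Polr1a, the largest subunit of the polymerase, had 184 and 179.9 CPM in DMSO and 293, 299 and 313 CPM after 4OHT (0.73 ± 0.09, adjusted p = 1.6e-07). Rrn3, the initiation factor that brings the polymerase to its promoter, had 271 and 278 CPM in DMSO and 352, 354 and 346 CPM after 4OHT (0.35 ± 0.07, adjusted p = 9.3e-05). The rise of Rrn3 was small but the libraries of each group lay close together. Polr1b, the second largest subunit, rose by 0.32 ± 0.08 (adjusted p = 0.0024).

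Among the snoRNP proteins 7 of 8 rose. Of the box C/D proteins, Rrp9, which is specific to the U3 particle, rose by 0.70 ± 0.14 (adjusted p = 0.00028), Nop56 by 0.46 ± 0.09 (adjusted p = 0.00015) and Nop58 by 0.26 ± 0.08 (adjusted p = 0.0064; -0.03 with scaling by library totals alone). Fbl, fibrillarin, the methyltransferase of these particles, had 69.4 and 71.8 CPM in DMSO and 69.6, 95.0 and 79.6 CPM after 4OHT. Its groups overlapped and it was not called (0.20 ± 0.11, adjusted p = 0.15). All 4 box H/ACA proteins were called, from Gar1 at 0.55 ± 0.11 down to Dkc1, the pseudouridine synthase dyskerin, at 0.28 ± 0.10 (-0.02 with scaling by library totals alone), with Nop10 at 0.46 ± 0.14 and Nhp2 at 0.38 ± 0.13. Of these, Dkc1, Nhp2 and Nop10 lost their call when 1 library was left out, at adjusted p-values of up to 0.17 for Dkc1 (without DMSO b; 0.080 without 4OHT b), 0.072 for Nhp2 (without 4OHT b; 0.056 and 0.057 without DMSO b and c) and 0.067 for Nop10 (without DMSO c; 0.051 without 4OHT b).

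Of the 5 nucleolar scaffold proteins and chaperones 3 rose. Ddx21, an RNA helicase that links polymerase I transcription with processing, had the largest rise of all members. It went from 176 and 166 CPM in DMSO to 298, 378 and 338 CPM after 4OHT, a log2 fold change of 0.98 ± 0.13 (adjusted p = 2.8e-06). Npm1 had 811 and 816 CPM in DMSO and 1155, 1433 and 1299 CPM after 4OHT (0.67 ± 0.11, adjusted p = 3.9e-05). For both genes clone b was the highest 4OHT library and clone a the lowest. Ncl rose by 0.51 ± 0.14 (adjusted p = 0.0054; 0.054 without DMSO b). Nolc1, a chaperone of snoRNPs, and Mybbp1a, a nucleolar regulator, were not called (0.44 ± 0.18, adjusted p = 0.056, and 0.40 ± 0.28, adjusted p = 0.27).

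**Figure D3:**
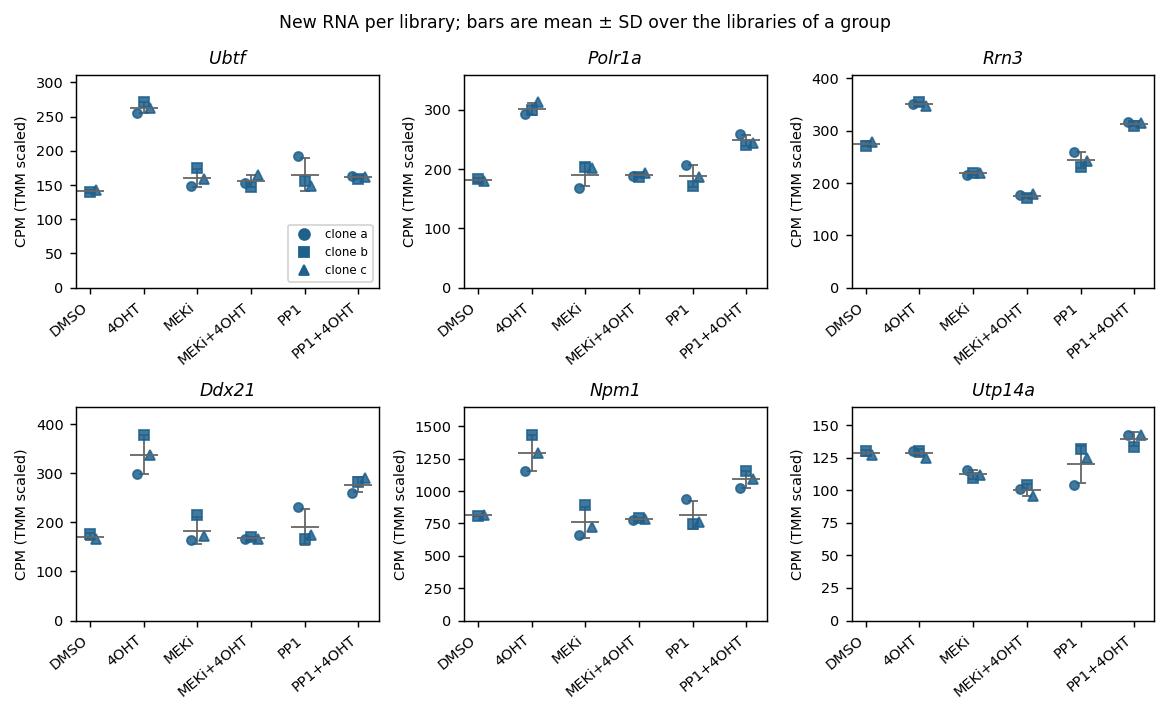
CPM in each library for 6 members, by group on the horizontal axis; symbols are clones and bars are the mean ± SD of a group. Ubtf is high only in the 4OHT libraries (255 to 271 CPM, against 139 to 192 CPM in all others), Rrn3 is lowest in MEKi with 4OHT (172 to 179 CPM), and Utp14a stays between 125 and 131 CPM in DMSO and 4OHT.

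Of the 12 early small subunit processome genes 9 rose, and all 5 tested late maturation genes did. Heatr1, Wdr43, Wdr75 and Utp15 belong to the module that joins the precursor while it is still being transcribed. Heatr1 had 121 and 135 CPM in DMSO and 216, 262 and 226 CPM after 4OHT (0.87 ± 0.13, adjusted p = 6.6e-06). Wdr43 had 353 and 319 CPM in DMSO and 569, 558 and 561 CPM after 4OHT (0.74 ± 0.07, adjusted p = 1.6e-09), the smallest adjusted p of the members. The 3 clones thus gave nearly the same level of Wdr43 after 4OHT. Pwp2, a subunit of the module that binds next, rose by 0.70 ± 0.12 (adjusted p = 4.2e-05). Among the late genes, Rrp12, which helps export the small subunit precursor, rose most: it had 46.7 and 46.4 CPM in DMSO and 84.3, 98.6 and 89.5 CPM after 4OHT (0.96 ± 0.12, adjusted p = 6.5e-07). Tsr1, a late GTPase-like factor, rose by 0.66 ± 0.10, and Nob1, the nuclease that makes the last cut of the small subunit RNA, by 0.65 ± 0.09. Bysl, another late factor, was called at adjusted p = 0.0043 and lost its call without DMSO b (0.061).

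In large subunit assembly 9 of 13 tested genes rose. The largest rises were those of Nop16 (0.78 ± 0.11, adjusted p = 1.5e-06), Nop2, an RNA methyltransferase (0.66 ± 0.11, adjusted p = 1.2e-05), and Mrto4, a placeholder for the ribosomal stalk (0.62 ± 0.17, adjusted p = 0.0028; 0.063 without DMSO b). Gnl3, the GTPase nucleostemin, which is abundant in stem cells, had 172 and 189 CPM in DMSO and 234, 286 and 290.3 CPM after 4OHT (0.58 ± 0.10, adjusted p = 1.7e-05). Its groups did not overlap. Bop1, Pes1 and Wdr12 form one complex that is needed to process the large subunit RNA. Bop1 rose by 0.59 ± 0.16 (adjusted p = 0.0031) and Wdr12 by 0.28 ± 0.09 (adjusted p = 0.0086), while Pes1 was at 0.33 ± 0.19 and was not called (adjusted p = 0.15).

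The 10 members not called in this comparison were of several kinds. Utp14a, which activates a helicase of the processome, had 131 and 127 CPM in DMSO and 131, 130.1 and 125 CPM after 4OHT, a log2 fold change of -0.00 ± 0.08 (adjusted p = 0.98). Its groups overlapped fully. Rrs1 was at 0.59 ± 0.25 (adjusted p = 0.060), Imp3 at 0.45 ± 0.25 and Tbl3 at 0.41 ± 0.22 (both adjusted p = 0.14); these low genes spread widely between clones, with Rrs1 at 27.3, 52.9 and 39.5 CPM after 4OHT. Ppan and Rrp1b, both large subunit factors, were at 0.16 ± 0.11 (adjusted p = 0.22) and 0.17 ± 0.08 (adjusted p = 0.10). With Fbl, Pes1, Nolc1 and Mybbp1a these make up the 10.

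**Figure D4:**
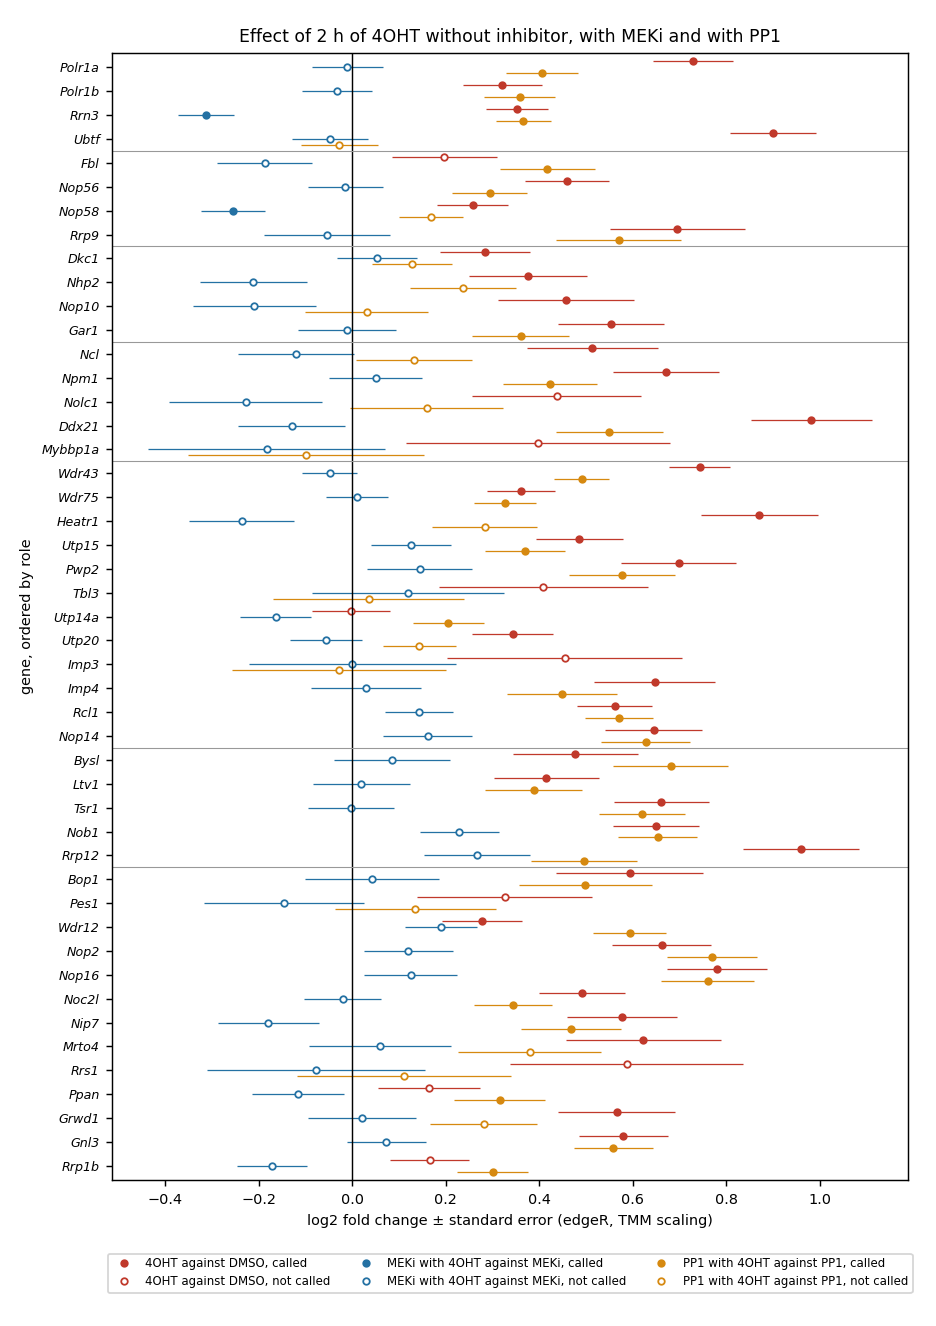
Log2 fold change ± standard error of each tested member (rows, ordered by role) for 4OHT against its own control without inhibitor (red), with MEKi (blue) and with PP1 (orange); filled points were called at an adjusted p under 0.05. Red points lie between -0.00 and 0.98 and orange points between -0.10 and 0.77, while blue points lie between -0.31 and 0.27 with 2 filled, both below 0.

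Within clones, 46 of 47 members were higher with 4OHT than with DMSO in clone b (median log2 ratio 0.70) and 46 in clone c (0.49). Clone a has no DMSO library. Counts within clones, here and below, were not made for all genes. The 4OHT library of clone b had the largest share of the 14 high-count loci of its group (28.9%) and the highest median of the members over the DMSO mean (0.66, against 0.39 and 0.53 in clones a and c). The libraries with the largest share in the MEKi and PP1 groups, clone b (32.6%) and clone a (42.0%), also had the highest medians of their groups, 0.13 and 0.15. In the groups with both an inhibitor and 4OHT this did not hold: the largest shares were in clone b with MEKi (16.1%) and clone c with PP1 (19.1%), and the highest medians in clone c (-0.02) and clone b (0.46). Without the 4OHT library of clone b, 34 members were called and the median was 0.44. With scaling by library totals alone 10 members were called, all higher, when the median of all genes moved to -0.32 and that of the members to 0.20. At that setting 8.67% of all genes were called higher. With library totals taken without the 14 loci, 23 members were higher and 1, Utp14a, lower. Of all genes 7971 were then called, 28.5% of them higher. The distance between the members' median and that of all genes was 0.54 with TMM and 0.51 with library totals. The counting's strand setting is not known, so reads of exons shared with a gene on the opposite strand cannot be told apart for Nop56, Rrp9, Dkc1, Nhp2, Mybbp1a, Heatr1, Tbl3, Bysl, Tsr1, Bop1, Pes1, Wdr12, Noc2l, Gnl3, Rrp1b and Pno1. Of the 32 tested members with no such overlap 26 rose, and of the 15 with one 11 did. Of the 8 members that hold snoRNA genes within their span, among them Nop56, Nop58, Ncl and Gnl3, 7 rose, and of the 39 others 30 did.

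With the MEK inhibitor present, no member was called higher after 4OHT. Of the 47 tested, 0 were called higher and 2 lower, beside 7.65% and 7.03% of all genes (14.7% in either direction). At an unadjusted p under 0.05, 3 were higher and 5 lower, and DESeq2 and limma-voom each called 2, both lower. The median log2 fold change was -0.01, with a range from -0.31 to 0.27, beside 0.00 for all genes. Rrn3 had 215, 220.0 and 219.7 CPM with MEKi and 176, 172 and 179 CPM with MEKi and 4OHT in clones a, b and c, and fell by 0.31 ± 0.06 on the log2 scale (adjusted p = 0.00084). It was lower in each of the 3 clones. All 3 libraries with 4OHT lay above those with MEKi alone in 3 members and below them in 5, beside 17.9% and 14.1% of all genes. Nop58 fell by 0.26 ± 0.07 (adjusted p = 0.013; 0.069 without MEKi a), from 567 to 620 CPM with MEKi to 484 to 509 CPM with MEKi and 4OHT. Its groups did not overlap. Ubtf (-0.05 ± 0.08), Polr1a (-0.01 ± 0.08), Ddx21 (-0.13 ± 0.11) and Npm1 (0.05 ± 0.10) were not called. Among clones, 32 of 47 members were higher with 4OHT in clone a, 8 in clone b and 27 in clone c. The MEKi library of clone a and the MEKi with 4OHT library of clone b were the 2 of highest background, and without them 1 member was called, lower. With scaling by library totals alone, which moved the median of all genes to 0.17, 1 was called, higher, and with those totals taken without the 14 loci 2 were higher and 2 lower. Of all genes 1130 and 2462 were called at these settings, 82.9% and 63.8% of them higher. With clone as a block 3 were called, Nob1 being higher.

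The difference between the 4OHT effects with and without MEKi was tested directly. It was below 0 and called for 37 of 47 members and above 0 and called for 0, beside 19.3% and 21.1% of all genes (40.4% in either direction). The median difference was -0.54 on the log2 scale, beside 0.02 for all genes. The smallest adjusted p-values were those of Wdr43 (-0.79 ± 0.09, adjusted p = 1.2e-07), Ubtf (-0.95 ± 0.12, adjusted p = 1.3e-06) and Rrn3 (-0.66 ± 0.09, adjusted p = 2.2e-06), and the most negative differences those of Ddx21 (-1.11 ± 0.17) and Heatr1 (-1.11 ± 0.17). With 1 library left out, 28 to 40 members were called. With scaling by library totals alone 2 were called, both lower, when the median of all genes moved to 0.48 and that of the members to -0.07. Of all genes 5496 were called at that setting, 86.5% of them higher.

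With PP1 present, 4OHT still raised most members. Of the 47 tested, 31 were higher in PP1 with 4OHT than in PP1 and 0 lower, beside 18.4% and 12.8% of all genes (31.3% in either direction). At an unadjusted p under 0.05, 36 were higher and 0 lower. The median log2 fold change was 0.37, with a range from -0.10 to 0.77, beside 0.00 for all genes. In 34 members the groups did not overlap, all higher with 4OHT, as did 24.9% of all genes. The called members were 3 of 4 genes of polymerase I transcription, 3 of 4 box C/D, 1 of 4 box H/ACA, 2 of 5 scaffold proteins, 8 of 12 early and 5 of 5 tested late small subunit genes, and 9 of 13 tested large subunit genes.

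The leading members with PP1 were factors of late small subunit and large subunit assembly. Nop2 had 86.8, 65.4 and 71.4 CPM with PP1 and 118, 124 and 135 CPM with PP1 and 4OHT (0.77 ± 0.10, adjusted p = 2.9e-06). Nop16 rose by 0.76 ± 0.10 (adjusted p = 5.6e-06), Bysl by 0.68 ± 0.12 (adjusted p = 0.00021) and Nob1 by 0.65 ± 0.08 (adjusted p = 4.5e-06). Of the processome, Nop14, a scaffold of the early particle, rose by 0.63 ± 0.10, Pwp2 by 0.58 ± 0.11 and Rcl1 by 0.57 ± 0.07. Wdr12 had 68.4, 82.6 and 76.3 CPM with PP1 and 114, 113 and 118 CPM with PP1 and 4OHT (0.59 ± 0.08, adjusted p = 5.1e-06). Its groups were well apart. Polr1a (0.41 ± 0.08), Rrn3 (0.37 ± 0.06) and Polr1b (0.36 ± 0.08) rose. Fbl, not called without inhibitor, rose from 64.3 to 78.1 CPM with PP1 to 91.6 to 94.5 CPM with PP1 and 4OHT (0.42 ± 0.10, adjusted p = 0.0031).

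Ubtf was not among the called genes with PP1. It had 192, 155 and 149 CPM with PP1 and 163, 158 and 162 CPM with PP1 and 4OHT, a log2 fold change of -0.03 ± 0.08 (adjusted p = 0.82). The groups overlapped, and without the PP1 library of clone a the value was 0.07. Of the box H/ACA genes Gar1 was called (0.36 ± 0.10), and Nhp2 (0.24 ± 0.11), Dkc1 (0.13 ± 0.09) and Nop10 (0.03 ± 0.13) were not. Of the scaffold proteins Ddx21 (0.55 ± 0.11) and Npm1 (0.42 ± 0.10) rose, and Ncl was at 0.13 ± 0.12 (adjusted p = 0.44).

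With 1 library left out, 26 to 31 members were called in the PP1 comparison, and 22 of the 31 were called each time. The 9 others were near the threshold: their highest adjusted p-values were 0.055 for Nop56 (without PP1 with 4OHT b; 0.052 without PP1 c), 0.060 for Gar1 (without PP1 a; 0.054 without PP1 with 4OHT a), 0.068 for Npm1 (without PP1 with 4OHT b), 0.27 for Utp14a (without PP1 a), 0.062 for Imp4 (without PP1 b; 0.052 without PP1 with 4OHT a), 0.050 for Ltv1 (without PP1 b), 0.099 for Bop1 (without PP1 b; 0.064 and 0.066 without PP1 with 4OHT a and b), 0.14 for Ppan (without PP1 with 4OHT b; 0.078 and 0.062 without PP1 b and c) and 0.063 for Rrp1b (without PP1 with 4OHT a). Utp14a also lost its call without PP1 c and without each of the PP1 with 4OHT libraries. Within clones, 35, 47 and 47 of 47 members were higher with 4OHT in clones a, b and c, and clone a is the one whose PP1 library gave 42.0% of its counts to the 14 loci. With clone as a block Mrto4 and Grwd1 were called as well.

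The comparisons of 4OHT without inhibitor and with PP1 share no library, and 27 members were called higher in both. This is 73.0% of the calls without inhibitor, beside 66.0% of all 47 tested members called higher with PP1. It is 87.1% of the calls with PP1, beside 78.7% of all 47 called higher without inhibitor. These shares lie near each other, so the overlap adds little to the 2 counts. Another 10 (Dkc1, Grwd1, Heatr1, Mrto4, Ncl, Nhp2, Nop10, Nop58, Ubtf and Utp20) were called without inhibitor and not with PP1, and 4 (Fbl, Ppan, Rrp1b and Utp14a) with PP1 and not without inhibitor. The test of the difference itself was called for 6 of the 47 members. Of the members called in a single comparison, Ubtf and Heatr1 were among these 6. The 4OHT effect was smaller with PP1 for Ubtf (-0.93 ± 0.12, adjusted p = 5.3e-06), Heatr1 (-0.59 ± 0.17, adjusted p = 0.012), Rrp12 (-0.46 ± 0.17, adjusted p = 0.042), Polr1a (-0.32 ± 0.11, adjusted p = 0.038) and Wdr43 (-0.25 ± 0.09, adjusted p = 0.033), and larger for Wdr12 (0.32 ± 0.11, adjusted p = 0.045). These were 10.6% of the tested members below 0 and 2.13% above. Over all genes 11.4% of these differences were called below 0 and 15.1% above (26.5% in either direction). The members' share below 0 thus lay near that of all genes, and their share above 0 was smaller. The median difference of the members was -0.14, beside 0.04 for all genes.

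Of these 6 differences Ubtf alone was called with every library left out in turn. Heatr1 reached an adjusted p of 0.088 without DMSO b. Rrp12 reached 0.0999 without PP1 a (and from 0.054 to 0.099 without DMSO b, DMSO c, 4OHT b, PP1 c or PP1 with 4OHT c). Polr1a reached 0.072 without PP1 with 4OHT c (0.058, 0.070 and 0.059 without DMSO c, PP1 a and PP1 c). Wdr43 reached 0.076 without PP1 c (0.055 and 0.075 without DMSO c and PP1 with 4OHT c). Wdr12 reached 0.22 without DMSO c and kept its call only without PP1 b among the libraries left out of these 4 groups. With scaling by library totals alone 5 differences were called, 5 above 0 and 0 below, when the median difference of all genes moved from 0.04 to 0.45. Of all genes 4157 were called at that setting, 89.3% of them above 0. Polr1a was then at 0.12 and Wdr43 at 0.17. The members' median minus that of all genes was -0.18 with TMM and -0.16 with library totals.

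The 4OHT effects with PP1 and with MEKi were also compared, without any DMSO or 4OHT library. The effect was larger with PP1 for 24 of 47 members and smaller for 0, beside 7.41% and 4.86% of all genes (12.3% in either direction), with a median difference of 0.40 beside -0.00. The smallest adjusted p-values were those of Rrn3 (0.68 ± 0.08, adjusted p = 3.7e-06), Wdr43 (0.54 ± 0.08, adjusted p = 5.6e-05) and Nop2 (0.65 ± 0.14, adjusted p = 0.0019). Ubtf had a difference of 0.02 ± 0.12 (adjusted p = 0.95). With scaling by library totals alone 1 was called, and the distance between the medians of the members and of all genes was 0.40, beside 0.41 with TMM. Of all genes 514 were called with those totals, 54.3% of them higher. Leaving out MEKi with 4OHT a or c, or PP1 with 4OHT b, brought the count to 14, 13 and 15. With clone as a block Nhp2 and Pwp2 were called as well.

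With the inhibitors alone, 1 member was called in all. MEKi against DMSO had 0 called higher and 1 lower, Rrn3, from 271 and 278 CPM in DMSO to 215, 220.0 and 219.7 CPM with MEKi (a fall of 0.33 ± 0.07 on the log2 scale, adjusted p = 0.016), beside 0.0805% and 0.449% of all genes (0.53% in either direction). The call of Rrn3 was lost with each library left out, at adjusted p-values of 0.16 and 0.55 without DMSO b and c, and 0.083, 0.055 and 0.090 without MEKi a, b and c. PP1 against DMSO had 0 members called by edgeR, DESeq2 and limma-voom, beside 0.241% of all genes (0.0805% higher, 0.161% lower); at an unadjusted p under 0.05, 2 were higher and 3 lower. For Rrn3 the order of the groups by mean level was 4OHT, PP1 with 4OHT, DMSO, PP1, MEKi and MEKi with 4OHT. No library of a group overlapped those of its neighbours in this order, and the difference between DMSO and PP1 was not called (-0.18 ± 0.07, adjusted p = 0.31).

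A second list held 150 other symbols of the pathway, of which 140 were tested. After 4OHT without inhibitor 101 were higher and 4 lower (72.1% and 2.86%, beside 25.7% and 26.3% of all genes; median 0.43). With MEKi 7 were higher and 7 lower (5% each, beside 7.65% and 7.03%). With PP1 94 were higher and 1 lower (67.1% and 0.714%, beside 18.4% and 12.8%; median 0.34). The largest rises without inhibitor were those of Rrp36, a factor of early cleavage, from 25.7 ± 1.1 (SD, n = 2) to 77.2 ± 3.4 CPM (n = 3; 1.59 ± 0.17), Cd3eap, a polymerase I subunit (1.19 ± 0.14), and Gnl2, a large subunit GTPase (1.01 ± 0.09). With PP1 Gnl2 (0.69 ± 0.08) and Cd3eap (0.52 ± 0.13) rose and Rrp36 was at 0.36 ± 0.16 (adjusted p = 0.087). The largest falls without inhibitor were those of Aatf, an early small subunit factor (-0.43 ± 0.09), Ttf1, which ends polymerase I transcription (-0.31 ± 0.10), and Taf1b, a subunit of the promoter selectivity factor (-0.30 ± 0.10). Polymerase I transcription thus held genes in both directions outside the members, 9 higher and 2 lower of 12. Of 13 genes of the nuclear exosome and RNA decay 5 were higher and 1 lower (38.5% and 7.69%, beside 25.7% and 26.3% of all genes).

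**Figure D5:**
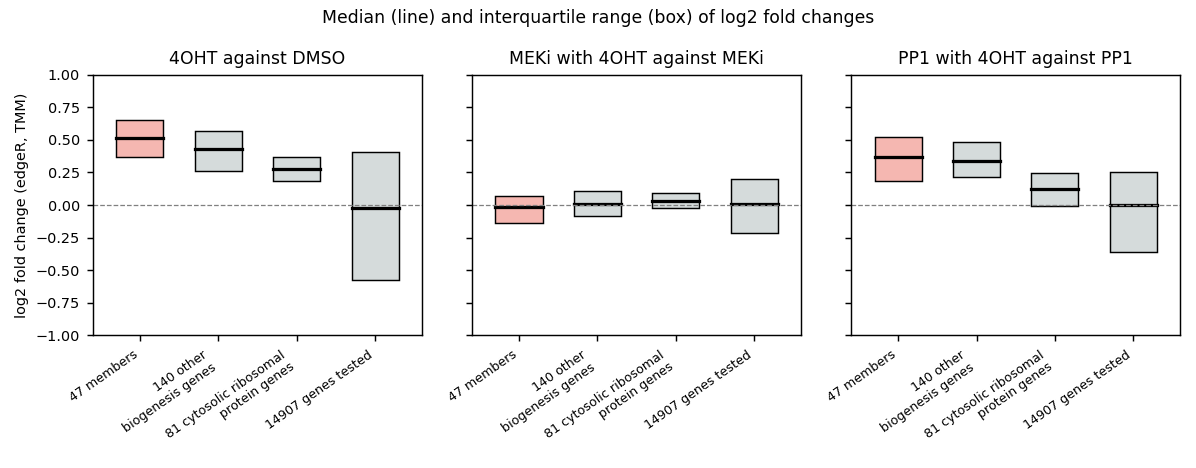
Median (line) and middle range from the lower to the upper quartile (box) of log2 fold changes for the members, the other biogenesis genes, the cytosolic ribosomal protein genes and all genes tested, for 4OHT against its control without inhibitor, with MEKi and with PP1. The members' medians are 0.51, -0.01 and 0.37, those of the other biogenesis genes 0.43, 0.01 and 0.34, and those of the ribosomal protein genes 0.28, 0.03 and 0.12.

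The cytosolic ribosomal protein genes, which supply the proteins these factors assemble, were counted in the same way: of 81 tested, 24 were higher (29.6%, beside 25.7% of all genes) and 0 lower (beside 26.3%) after 4OHT without inhibitor (median 0.28). With MEKi 1 was higher and 0 lower, beside 7.65% and 7.03% of all genes, and with PP1 21 were higher and 0 lower (25.9%, beside 18.4% higher and 12.8% lower; median 0.12). Many have near-identical processed copies, so their counts are uncertain. The difference between the lists was not tested. Myc, a regulator of many biogenesis genes, had 20.1 and 26.0 CPM in DMSO and 65.2, 71.7 and 54.4 CPM after 4OHT (1.47 ± 0.17), rose by 1.56 ± 0.16 with PP1 and fell by 2.60 ± 0.27 with MEKi, from 6.02 to 10.1 CPM to 1.10 to 1.52 CPM. Mycn, its relative in stem cells, was lower after 4OHT in all 3 settings (-1.15 ± 0.14 without inhibitor, -0.88 ± 0.13 with MEKi and -0.70 ± 0.13 with PP1). Any part of either in the members' changes was not tested.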

How the data were processed

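The deposited table holds raw counts per gene symbol, as whole numbers with 1 column per library. Per the submitters' processing notes, the authors used STAR, featureCounts and mm10. The sources used here do not give versions, annotation, feature type or strand setting. Symbols were matched to GENCODE M21 (25595 of 25899, 98.8%; 49 of 49 members).

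One edgeR model (version 4.0.16, R 4.3.3) covered the 17 libraries, with TMM factors, a term for each group and robust dispersions. The low-count filter (filterByExpr) kept 14907 genes for testing. The quasi-likelihood model left 11 residual degrees of freedom, with a common biological coefficient of variation of 0.098. A call means a Benjamini-Hochberg adjusted p below 0.05 across all genes tested. Of 8 comparisons, 5 set 2 groups against each other and 3 were differences between 4OHT effects. Each standard error is approximate, being the size of the log2 fold change divided by the root of the F statistic. limma 3.58.1 (voom) and DESeq2 1.42.0 were alternatives, with other scalings, other filters, clone as a block, only the groups compared, and libraries left out. The floor given for a count of 0 covers counting error only, while the standard errors also include the spread between libraries of a group.

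Named members were those with the largest called change per role and 4OHT comparison, those not called in 4OHT against DMSO, a fixed set of 13 core genes, and the 3 smallest adjusted p-values per direction elsewhere. Members, lists and rules were chosen with earlier results of these data known. The letters of the labels name the same clone in each group, so clones pair libraries: after subtraction of group means, same-clone pairs had a mean correlation of 0.086 across genes (40 pairs, from -0.15 to 0.36) and other pairs -0.043 (80 pairs).

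In simulated counts, 200 genes were changed to test the model. For 4OHT against DMSO (14581 genes) 35.2%, 62.7% and 95.7% of genes changed 1.5-fold, 2-fold and 4-fold were recovered, with 7.19% of calls false. Promoter windows came from RefSeq (GRCm38.p6). Plots were drawn with matplotlib 3.10.9.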

Additional observations from a re-analysis of the deposited data

Results flagged for a closer look

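In these members the effect of 4OHT differed between inhibitor settings by a test of the difference itself (edgeR interaction contrast, adjusted over all genes); values are differences of log2 fold changes. With MEKi minus without inhibitor, Rrn3 was at -0.66, Ubtf at -0.95 and Wdr43 at -0.79. Each was called with every library left out in turn, and each lost its call with scaling by library totals alone.

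With PP1 minus without inhibitor, Ubtf was at -0.93, Heatr1 at -0.59, Rrp12 at -0.46, Polr1a at -0.32 and Wdr43 at -0.25, and Wdr12 was at 0.32. The members' share called below 0 (10.6%) lay near that of all genes (11.4%). Of these 6, Ubtf alone was called with every library left out in turn. Ubtf, Heatr1, Rrp12, Polr1a and Wdr43 were not called with scaling by library totals alone. Wdr12 was not called with DESeq2, with its size factors in edgeR, with either other filter or in a fit of only the groups compared. It also lost its call without the high-count loci and without the 2 libraries of highest background. With PP1 minus with MEKi, Rrn3 was at 0.68, Nop2 at 0.65 and Wdr43 at 0.54, and each of these 3 lost its call with scaling by library totals alone.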

How the results depend on the processing

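Scaling moved the counts by over 1.5 times in 5 of 8 comparisons. With scaling by library totals alone, called members went from 37 to 10 for 4OHT against DMSO, from 2 to 1 with MEKi, from 1 to 0 for MEKi against DMSO, from 37 to 2 for the difference with MEKi and from 24 to 1 for PP1 minus MEKi, while they were 31 and 32 with PP1 (29 genes shared), 6 and 5 for the difference with PP1 (1 gene shared) and 0 and 0 for PP1 against DMSO. With totals taken without the 14 high-count loci these were 24 for 4OHT against DMSO, 4 with MEKi, 9 for the difference with MEKi and 12 for PP1 minus MEKi. Calls over all genes also moved with library totals alone. They went from 7752 to 6116 for 4OHT against DMSO, from 2188 to 1130 with MEKi and from 4661 to 2668 with PP1. They went from 6022 to 5496 for the difference with MEKi, from 3943 to 4157 for that with PP1 and from 1829 to 514 for PP1 minus MEKi. Without the 2 libraries of highest background the counts of members were 1 with MEKi and 0 for MEKi against DMSO, which was also 0 in a fit of only those groups. With 1 library left out, the ranges were 32 to 42 for 4OHT against DMSO, 2 to 3 with MEKi, 26 to 31 with PP1, 0 to 0 for MEKi against DMSO and for PP1 against DMSO, 28 to 40 for the difference with MEKi, 2 to 8 for that with PP1 and 13 to 29 for PP1 minus MEKi.

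Changes of sign were listed only for named members, in the comparisons they were named for. Other values, such as that of Wdr12 for 4OHT against DMSO, were not part of this list. With scaling by library totals alone the sign changed for Fbl (-0.11), Nop58 (-0.0337), Dkc1 (-0.0244), Ppan (-0.14) and Rrp1b (-0.14) in 4OHT against DMSO. It also changed for Ubtf (0.12) with PP1, and for the PP1 differences of Polr1a (0.12) and Wdr43 (0.17). With totals taken without the loci Fbl was at -0.0508, Ppan at -0.0833 and Rrp1b at -0.0809. Utp14a, at -0.00, was at 0.0235 with DESeq2 size factors, 0.0234 with DESeq2, 0.0352 without a filter, and from -0.0037 to 0.0482 with 1 library left out. Ubtf with PP1 was from -0.0998 (without PP1 c) to 0.0659 (without PP1 a) with 1 library left out. The cause was not tested.

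With clone as a replicate block, Utp14a was at 0.0031 and called members were 38 for 4OHT against DMSO, 3 with MEKi, 33 with PP1, 36 for the difference with MEKi and 26 for PP1 minus MEKi. The block added Imp3 to the calls for 4OHT against DMSO. The motif shares within 100 bases of the start site were 4.7% for CACGTG, 7.0% for CACGCG, 16.3% for CCGGAAGT and 2.3% for TATAAA.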
